A study of Mus musculus with 15 samples.

Results

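Matrix metalloproteinases (MMPs) and their tissue inhibitors (TIMPs) were followed in SIRT7 knockout and wild-type fibroblasts. The 9 genes are the proteases Mmp2, Mmp3, Mmp9, Mmp11, Mmp13 and Mmp14 and the inhibitors Timp1, Timp2 and Timp3. They were chosen by symbol, and all 9 were found among the 55487 genes of the count table. All 9 also passed the filter on low counts that left 16678 genes to test.

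The groups were SIRT7 knockout and wild-type TTF cells (TTF commonly stands for tail-tip fibroblast) of female mice from a cross of the C57BL6 and CAST strains. SIRT7 is a nuclear deacylase of the sirtuin family. PolyA RNA was sequenced from 3 knockout libraries, KO 2, KO 9 and KO 22, named after the numbers of their lines, and from 3 wild-type libraries, WT 1, WT 2 and WT 3. Since the parental strains differ at many bases, the authors could assign part of the reads to genome 1 or genome 2. The design text of the series speaks of ES cells and embryonic fibroblasts, whereas the labels of these samples say TTF, which was followed. Which strain is genome 1, how Sirt7 was disrupted, the age of the mice and whether a knockout line descends from a single cell are not stated in the labels read here. Separate animals or cultures are not named for the wild-type libraries, so the p-values rest on the spread among these 6 libraries alone, and line and genotype cannot be told apart. The other 9 libraries of the series were not analysed here. They have SIRT7 added back, are of the SIRT7-HY genotype or are SIRT7 knockouts without a line number.

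MMPs are zinc-dependent endopeptidases that cut collagens, proteoglycans and other matrix proteins. They are made as inactive proenzymes, in which a cysteine of the propeptide blocks the zinc, and are switched on when the propeptide is cut off. TIMPs fit with their first residues into the active site of an MMP and block it. TIMP2 has a second role: with MMP14 at the cell surface it holds proMMP2, so that a neighbouring free MMP14 can activate it.

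The active site that all 6 proteases share is shown first, since it is the feature that groups them. Each line gives the coding stretch of 33 bases for the zinc-binding site, from the GENCODE M21 transcripts of the reference genome GRCm38 and not from the reads. Capitals mark the codons of the 3 histidines that hold the zinc and of the catalytic glutamate. Each stretch lies within 1 coding exon.
Mmp2 (chr8:92839279-92839311, plus strand, exon 8 of Mmp2-201): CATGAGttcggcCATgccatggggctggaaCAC
Mmp3 (chr9:7449775-7449807, plus strand, exon 5 of Mmp3-201): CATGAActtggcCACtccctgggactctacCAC
Mmp9 (chr2:164951133-164951165, plus strand, exon 8 of Mmp9-201): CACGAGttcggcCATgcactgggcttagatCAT
Mmp11 (chr10:75926931-75926963, minus strand, exon 5 of Mmp11-201): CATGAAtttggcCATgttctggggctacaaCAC
Mmp13 (chr9:7276573-7276605, plus strand, exon 5 of Mmp13-201): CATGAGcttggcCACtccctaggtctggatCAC
Mmp14 (chr14:54437627-54437659, plus strand, exon 5 of Mmp14-201): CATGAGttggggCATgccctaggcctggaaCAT

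The stretches of Mmp3 and Mmp13 were identical at 27 of 33 bases, and so were those of Mmp2 and Mmp14. Mmp3 and Mmp9 were the least alike of the 15 pairs, with 20 of 33 identical bases. Mmp11 and Mmp14 also carry a basic site at the end of the propeptide where furin-type convertases cut. A search for such codons followed by a codon for tyrosine or phenylalanine found them in none of the other 4. Sites followed by another residue were not searched for. The 4 codons of the basic site are given in capitals.
Mmp11 (chr10:75928327-75928338, minus strand, exon 2 of Mmp11-201): CGACAGAAGCGC
Mmp14 (chr14:54436202-54436213, plus strand, exon 3 of Mmp14-201): CGGAGGAAGCGC

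In the TIMPs, the first residues of the mature inhibitor reach the zinc. Capitals mark the codons of the first 2 cysteines, the earlier of which is the first residue after the signal peptide.
Timp1 (chrX:20871111-20871134, plus strand, exon 2 of Timp1-201): TGTagcTGTgccccaccccaccca
Timp2 (chr11:118354989-118355012, minus strand, exon 1 of Timp2-201): TGCagcTGCtccccggtgcacccg
Timp3 (chr10:86300923-86300946, plus strand, exon 1 of Timp3-201): TGCacaTGCtctcccagccatccc

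Total gene counts lay between 61068884 and 61476367 in the knockout libraries and between 61065582 and 61506413 in the wild-type libraries, with 37.2% to 37.9% and 37.0% to 37.5% of split counts assigned to a genome. Knockout libraries differed more among themselves, with a biological coefficient of variation of 0.378, against 0.136 in wild type. All 10 fibroblast markers reached 1 CPM, which is 1 count per 1000000 gene counts of a library, in at least 1 library, and their summed level was 26018 to 34573 CPM in knockout and 15753 to 16004 CPM in wild type. Marker sums of other cell types were small. Keratinocyte markers summed to 4.07 to 5.73 CPM in knockout and 4.60 to 5.52 CPM in wild type, with Krt1 at 0 in all 6 libraries. Endothelial markers summed to 0.752 to 5.56 CPM in knockout and 2.28 to 2.64 CPM in wild type, with Cdh5 and Tie1 at 0. The 10 leukocyte markers summed to 19.9 to 29.8 CPM in knockout and 15.4 to 16.5 CPM in wild type, led by Lyz2, with Adgre1 and S100a9 at 0. The 6 skeletal muscle markers summed to 49.3 to 112 CPM in knockout and 18.1 to 21.7 CPM in wild type, led by Acta1, with Myod1, Myog and Pax7 at 0. Schwann cell markers summed to 5.41 to 11.4 CPM in knockout and 9.15 to 9.89 CPM in wild type. Melanocyte markers summed to 5.90 to 9.40 CPM in knockout and 14.4 to 16.3 CPM in wild type, with Tyr and Mlana at 0. Chondrocyte markers summed to 4.65 to 11.9 CPM in knockout and 6.45 to 7.30 CPM in wild type, and osteoblast markers to 1.57 to 12.6 CPM and 1.95 to 2.72 CPM, with Ibsp at 0. The part of these levels in the results below was not tested. Sirt7 itself had 512, 694 and 787 counts in KO 2, KO 9 and KO 22, against 833, 1107 and 598 counts in WT 1, WT 2 and WT 3, so its groups overlapped at the level of the whole gene.

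Of the 9 genes, Timp3 fell in knockout, 0 rose and 8 did not pass the test (edgeR's quasi-likelihood test, adjusted p under 0.05 over all 16678 genes). Across all genes 6.73% passed, 3.54% upward and 3.19% downward. At an unadjusted p under 0.05 the test marked 3 of the 9 (Mmp11, Mmp14 and Timp3), against 26.3% of all genes. The median log2 fold change of knockout over wild type was 0.00814 over the 9 genes and 0.0152 over all genes tested. The groups did not overlap in 4 of the 9: Mmp11 and Mmp14 were above wild type and Mmp2 and Timp3 below it in every knockout library. Across all genes the groups did not overlap in 35.9%, with knockout higher in 15.7% and lower in 20.2%, so a count of 4 is near the background and is no result about these genes. In bulk RNA, fewer cells of a type and less RNA per cell cannot be told apart.

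**Figure D1:**
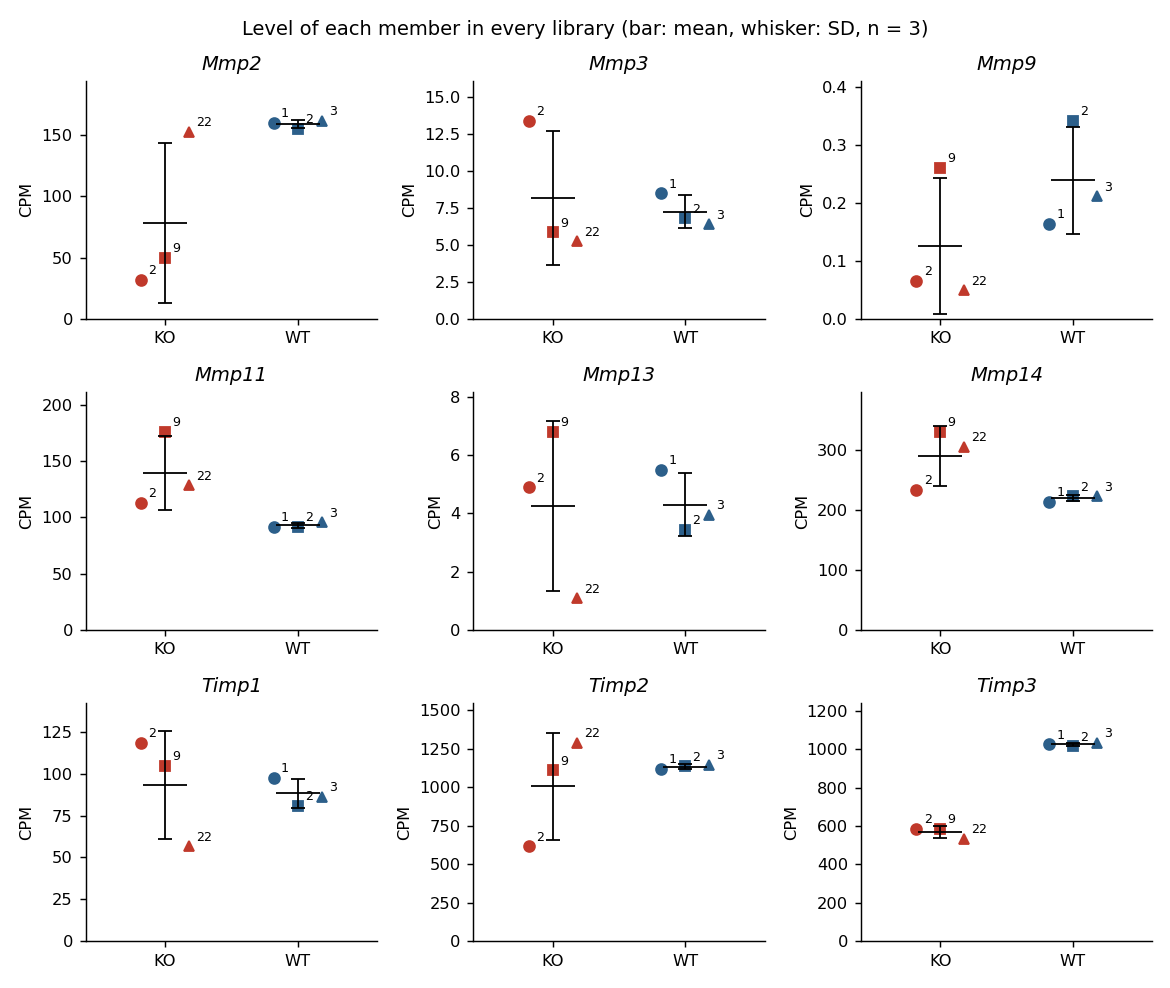
Level of each of the 9 genes in CPM (linear axis from 0), with knockout libraries KO 2, KO 9 and KO 22 in red at the left and wild-type libraries WT 1, WT 2 and WT 3 in blue at the right of each panel; bars are means and whiskers SD (n = 3 per group). The knockout points of Timp3 lie at 534 to 585 CPM, all below the wild-type points at 1017 to 1033 CPM, while those of Mmp2 run from 31.7 to 152.8 CPM.

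Timp3 (ENSMUSG00000020044, chromosome 10, 86300372 to 86349506 in GRCm38, plus strand) encodes the inhibitor that stays bound to the extracellular matrix and also blocks ADAM proteases. It had 585, 585 and 534 CPM in KO 2, KO 9 and KO 22, against 1025, 1017 and 1033 CPM in WT 1, WT 2 and WT 3. The knockout lines lay close together, well below a wild-type group that varied little. Timp3 averaged 568 ± 29.4 CPM in knockout and 1025 ± 7.74 CPM in wild type (SD, n = 3 each). The log2 fold change was -0.82 with SE 0.07, and the edgeR adjusted p was 0.00508. Chromosome 10 as a whole had a median log2 fold change of 0.18, so Timp3 moved against the median of its chromosome. With chromosome medians taken out its log2 fold change was -0.999. The call was kept without any 1 knockout library and was lost without WT 1, WT 2 or WT 3, where the edgeR adjusted p was 0.0557, 0.0507 and 0.0582 at log2 fold changes of -0.82, -0.84 and -0.82.

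Both chromosome copies of Timp3 were lower. In allele CPM, which is CPM over the allele-assigned counts of a library alone, genome 1 gave 387.8, 379.4 and 397.4 in KO 2, KO 9 and KO 22, against 585.5, 579.3 and 565.2 in WT 1, WT 2 and WT 3. Genome 2 gave 573.7, 561.4 and 479.3 in KO 2, KO 9 and KO 22, against 1116, 1090 and 1115 in WT 1, WT 2 and WT 3. The groups did not overlap for either copy. Nearly all of the counts lay on the coding transcript Timp3-201, with 35707, 35966 and 32676 counts in KO 2, KO 9 and KO 22 and 62573, 62464 and 63508 counts in WT 1, WT 2 and WT 3. Syn3, a synapsin gene on the opposite strand that overlaps Timp3, had at most 29 counts in any library, and no source read here says whether the counting used strand.

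Timp2 (ENSMUSG00000017466, chromosome 11, 118301069 to 118355740, minus strand) encodes the inhibitor that also takes part in proMMP2 activation. It had 618, 1111 and 1289 CPM in KO 2, KO 9 and KO 22, against 1120, 1138 and 1148 CPM in WT 1, WT 2 and WT 3. KO 2 was far below wild type, KO 9 just below it and KO 22 above it. The log2 fold change was -0.14 (SE 0.26), and the edgeR adjusted p was 0.785. Without KO 2 it was 0.12, with an edgeR adjusted p of 0.432. Cep295nl, which overlaps Timp2 on the same strand, had 83, 323 and 247 counts in KO 2, KO 9 and KO 22 and 254, 273 and 291 counts in WT 1, WT 2 and WT 3.

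Timp1 (ENSMUSG00000001131, X chromosome, 20870166 to 20874735, plus strand) encodes a soluble inhibitor that growth factors and cytokines induce. It had 118, 105 and 56.7 CPM in KO 2, KO 9 and KO 22, against 97.7, 80.9 and 86.4 CPM in WT 1, WT 2 and WT 3. KO 2 and KO 9 were above every wild-type library and KO 22 below every one. The log2 fold change was 0.10 (SE 0.26), with an edgeR adjusted p of 0.835. Its counts were divided between both coding transcripts: Timp1-202 had 4197, 4011 and 1858 counts in KO 2, KO 9 and KO 22 and 3248, 3016 and 2647 counts in WT 1, WT 2 and WT 3, and Timp1-201 had 3039, 2438 and 1613 counts in knockout and 2720, 1953 and 2667 counts in wild type. Syn1, which overlaps Timp1 on the opposite strand, had 65 to 247 counts in knockout and 222 to 272 counts in wild type.

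Mmp2 (ENSMUSG00000031740, chromosome 8, 92827291 to 92853420, plus strand) encodes gelatinase A, which cuts denatured and basement-membrane collagen. It had 31.7, 50.02 and 152.8 CPM in KO 2, KO 9 and KO 22, against 160.3, 155.3 and 162.0 CPM in WT 1, WT 2 and WT 3. KO 2 and KO 9 were far below wild type, and KO 22 was just below it. Mmp2 averaged 78.2 ± 65.3 CPM in knockout and 159.2 ± 3.49 CPM in wild type (SD, n = 3 each), with a log2 fold change of -0.98 (SE 0.56) and an edgeR adjusted p of 0.316. Without KO 22 the log2 fold change was -1.95 and the edgeR adjusted p 0.00813. The single library KO 22 thus decides whether Mmp2 is called.

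Mmp14 (ENSMUSG00000000957, chromosome 14, 54431612 to 54445364, plus strand) encodes the membrane-anchored collagenase MT1-MMP. It had 233, 330 and 305 CPM in KO 2, KO 9 and KO 22, against 214, 223 and 223 CPM in WT 1, WT 2 and WT 3. All 3 knockout libraries were above wild type, KO 2 only slightly. Mmp14 averaged 289.5 ± 50.2 CPM in knockout and 219.7 ± 5.02 CPM in wild type (SD, n = 3 each), with a log2 fold change of 0.43 (SE 0.14) and an edgeR adjusted p of 0.118. Without KO 2 the log2 fold change was 0.57 and the edgeR adjusted p 0.0167. A transcript of Mmp14 with a retained intron had 100, 131 and 747 counts in KO 2, KO 9 and KO 22 and 172, 118 and 741 counts in WT 1, WT 2 and WT 3, so KO 22 and WT 3 stood apart from the other 4 libraries.

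Mmp11 (ENSMUSG00000000901, chromosome 10, 75923222 to 75936496, minus strand) encodes stromelysin 3, an MMP of stromal fibroblasts that leaves the cell already activated by furin. It had 113.0, 176.0 and 128.5 CPM in KO 2, KO 9 and KO 22, against 91.5, 91.6 and 95.6 CPM in WT 1, WT 2 and WT 3. Every knockout library was above every wild-type library. Mmp11 averaged 139.2 ± 32.8 CPM in knockout and 92.9 ± 2.32 CPM in wild type (SD, n = 3 each), with a log2 fold change of 0.62 (SE 0.17) and an edgeR adjusted p of 0.0795. The adjusted p was 0.0212 with DESeq2, 0.0495 with limma-voom and a variance for each group, and 0.0365 with edgeR without KO 2. With chromosome medians taken out it was 0.197, at a log2 fold change of 0.44. The call therefore changes with the tool. Chchd10, which overlaps Mmp11 on the opposite strand, had 67, 110 and 68 counts in KO 2, KO 9 and KO 22 and 31, 11 and 51 counts in WT 1, WT 2 and WT 3, few beside the 5590 to 10818 counts of Mmp11.

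The other 3 proteases were low. Mmp3 (ENSMUSG00000043613, chromosome 9, 7445822 to 7455975, plus strand), which encodes stromelysin 1, had 13.4, 5.84 and 5.25 CPM in KO 2, KO 9 and KO 22, against 8.50, 6.79 and 6.41 CPM in WT 1, WT 2 and WT 3. KO 2 was the highest library and the other knockout libraries were the lowest (log2 fold change 0.20, SE 0.37, edgeR adjusted p = 0.782). Mmp13 (ENSMUSG00000050578, chromosome 9, 7272514 to 7283331, plus strand), the main interstitial collagenase of rodents, had 4.90, 6.80 and 1.08 CPM in KO 2, KO 9 and KO 22, against 5.50, 3.44 and 3.95 CPM in WT 1, WT 2 and WT 3. The groups overlapped, with KO 22 the lowest of all (log2 fold change 0.01, SE 0.60, edgeR adjusted p = 0.996). Mmp9 (ENSMUSG00000017737, chromosome 2, 164940780 to 164955850, plus strand), which encodes gelatinase B of neutrophils and macrophages, had 4, 16 and 3 counts in KO 2, KO 9 and KO 22, against 10, 21 and 13 counts in WT 1, WT 2 and WT 3. The groups overlapped at these low counts, and Mmp9 was not called (log2 fold change -0.89, SE 0.68, edgeR adjusted p = 0.448), and no allelic ratio was tested.

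**Figure D2:**
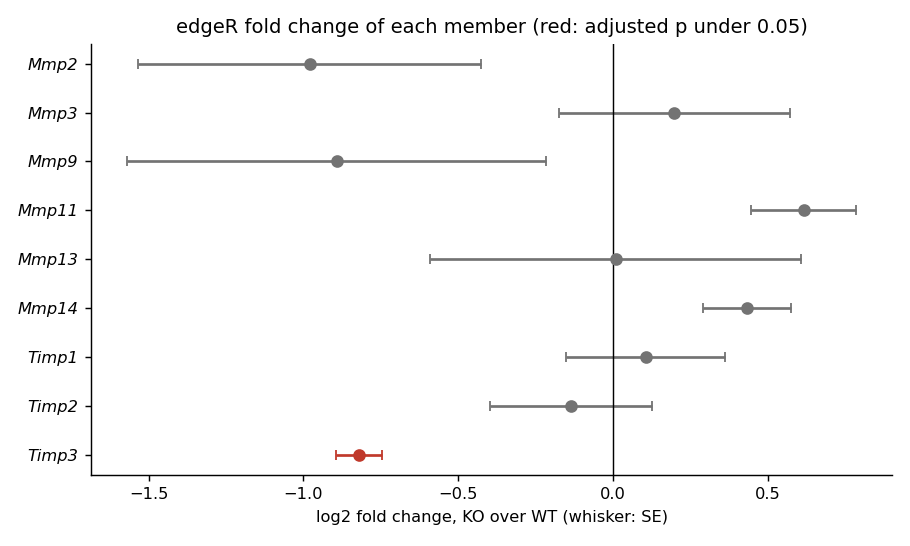
Log2 fold change of knockout over wild type from edgeR for each of the 9 genes, with whiskers of 1 SE (n = 3 per group); red marks an adjusted p under 0.05. Timp3 at -0.82 is the gene that passed, Mmp2 and Mmp9 have wide errors (SE 0.56 and 0.68), and Mmp11 and Mmp14 lie at 0.62 and 0.43.

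Levels of different genes were compared per kilobase of transcript. In knockout the order by mean was Timp2 (271 ± 93.8 CPM per kb), Timp3 (120 ± 6.26), Mmp14 (118 ± 21.9), Timp1 (108 ± 37.5), Mmp11 (64.2 ± 14.8), Mmp2 (26.2 ± 21.5), Mmp3 (4.53 ± 2.53), Mmp13 (1.59 ± 1.09) and Mmp9 (0.0494 ± 0.0308; SD, n = 3 each). In wild type it was Timp2 (306 ± 3.60 CPM per kb), Timp3 (217 ± 1.64), Timp1 (103 ± 10.1), Mmp14 (91.8 ± 6.24), Mmp2 (52.6 ± 1.24), Mmp11 (41.9 ± 1.196), Mmp3 (4.02 ± 0.619), Mmp13 (1.61 ± 0.402) and Mmp9 (0.107 ± 0.0538). In the knockout libraries the ranges of Timp3, Mmp14 and Timp1 overlapped, and so did those of Timp1 and Mmp11, while in wild type only Timp1 and Mmp14 did among neighbours in the order. Mmp2 was above Mmp11 in every wild-type library and below it in every knockout library.

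The sum of the 3 inhibitors was 428.2, 545.0 and 526.8 CPM per kb in KO 2, KO 9 and KO 22, against 633.0, 616.2 and 628.9 CPM per kb in WT 1, WT 2 and WT 3. The sum of the 6 proteases was 165.1, 234.6 and 244.2 CPM per kb in KO 2, KO 9 and KO 22, against 188.1, 187.2 and 200.8 CPM per kb in WT 1, WT 2 and WT 3. Inhibitor sums were lower in every knockout library, while protease sums were lower in KO 2 and higher in KO 9 and KO 22. The inhibitor sum contains Timp3, the called gene. Timp2 had 166.6, 299.6 and 347.6 CPM per kb in KO 2, KO 9 and KO 22, against 302.3 to 309.4 in wild type. Among single genes of the whole table the groups did not overlap in 35.9%. The ratio of inhibitor to protease RNA was 2.59, 2.32 and 2.16 in KO 2, KO 9 and KO 22 and 3.37, 3.29 and 3.13 in WT 1, WT 2 and WT 3. It is given as a description of RNA levels with no test, and proteins were not measured. Mmp14 made up 56.3%, 55.9% and 53.4% of the protease sum in KO 2, KO 9 and KO 22 and 46.4%, 47.7% and 49.3% in WT 1, WT 2 and WT 3. Its short transcript with a retained intron (726 bases) weighs more per kb and had 747 counts in KO 22 and 741 in WT 3. Mmp14 thus had 222.6 CPM in both WT 2 and WT 3 but 89.3 and 98.9 CPM per kb. The protease sums, shares and ratios of KO 22 and WT 3 carry this limit. Mmp2 made up 6.56%, 7.22% and 20.8% in KO 2, KO 9 and KO 22 and 28.2%, 27.3% and 26.7% in WT 1, WT 2 and WT 3. Timp2 made up 38.9%, 55.0% and 66.0% of the inhibitor sum in KO 2, KO 9 and KO 22 and 47.8%, 49.8% and 49.2% in WT 1, WT 2 and WT 3. Timp2 led the inhibitors in all 6 libraries, with shares that varied more among the knockout lines.

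**Figure D3:**
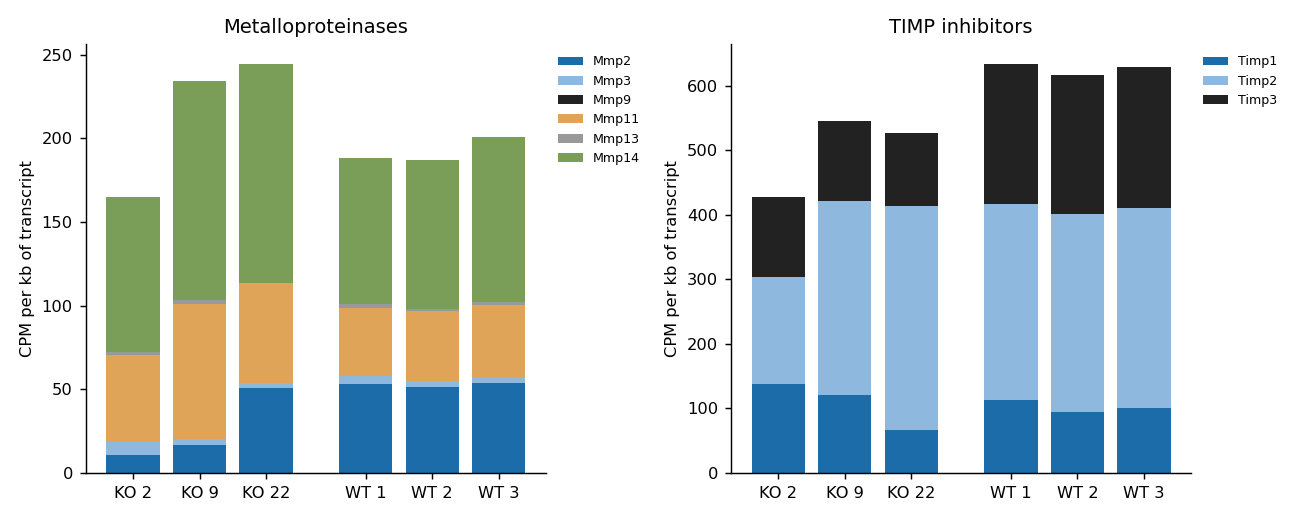
Summed level of the 6 proteases (left) and of the 3 inhibitors (right) in each library, in CPM per kb of transcript on axes from 0, knockout libraries left of wild-type libraries; colours are genes. The inhibitor bars reach 428.2 to 545.0 in knockout and 616.2 to 633.0 in wild type, with a smaller Timp3 segment in every knockout library.

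The allele-assigned counts asked whether a difference in level came from both chromosome copies. The ratio of genome 1 to genome 2 was tested in 8 of the 9 genes, with an edgeR term for allele by group, and it passed in Mmp11 and Timp3. Across all 12984 genes tested 23.0% passed, so 2 of 8 is near the background, and at an unadjusted p under 0.05 they were again 2 of 8, against 34.6%. The genome 1 share of Mmp11 was 46.9%, 46.0% and 43.9% in KO 2, KO 9 and KO 22, against 37.9%, 30.3% and 35.4% in WT 1, WT 2 and WT 3 (log2 ratio change 0.67, SE 0.18, edgeR adjusted p = 0.0407). That of Timp3 was 40.3%, 40.3% and 45.3% in KO 2, KO 9 and KO 22, against 34.4%, 34.7% and 33.6% in WT 1, WT 2 and WT 3 (log2 ratio change 0.47, SE 0.13, edgeR adjusted p = 0.0440). Both shares were higher in every knockout library than in any wild-type library, and across all genes the shares of the groups did not overlap in 44.0%. Both genes lie on chromosome 10, where the median share over 661 genes was 50.5%, 48.5% and 50.4% in KO 2, KO 9 and KO 22 and 38.5%, 38.8% and 39.1% in WT 1, WT 2 and WT 3. Both genes thus shifted in the same direction as the median of their chromosome. The Mmp11 call was lost without any 1 of the 6 libraries (edgeR adjusted p 0.0505 to 0.129). That of Timp3 was kept without KO 9 (0.0215) and lost without each of the other 5 libraries (0.0557 to 0.154).

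The knockout lines were split in the alleles of Mmp2. Genome 1 gave 79 of 612 allele-assigned counts in KO 2 (12.9%, 95% Wilson interval 10.5% to 15.8%), 133 of 869 in KO 9 (15.3%, 13.1% to 17.9%) and 2074 of 2403 in KO 22 (86.3%, 84.9% to 87.6%). The wild-type shares were 73.4%, 80.4% and 74.6% in WT 1, WT 2 and WT 3. In allele CPM, genome 1 gave 3.52, 5.78 and 90.3 in KO 2, KO 9 and KO 22, against 74.3, 110.3 and 86.2 in WT 1, WT 2 and WT 3. Genome 2 gave 23.7, 32.0 and 14.3 in KO 2, KO 9 and KO 22, against 26.9, 26.9 and 29.3 in WT 1, WT 2 and WT 3. The low level of KO 2 and KO 9 was thus a low level of the genome 1 copy, while their genome 2 copy lay on either side of wild type. The allelic ratio did not pass over all 3 lines (log2 ratio change -2.86, SE 1.57, edgeR adjusted p = 0.256), and passed without KO 22 (log2 ratio change -4.29, edgeR adjusted p = 0.00605). Intervals here cover counting error only.

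The genes beside Mmp2 did not show that split. Only 4 genes within 1 Mb had enough allele-assigned counts, and their median share was 13.4%, 14.9% and 14.7% in KO 2, KO 9 and KO 22 and 20.4%, 22.8% and 21.7% in WT 1, WT 2 and WT 3. Irx5, an Iroquois homeobox gene 469.7 kb before the start of Mmp2, had shares of 12.3%, 12.2% and 12.4% in KO 2, KO 9 and KO 22 and 15.3%, 14.6% and 17.0% in WT 1, WT 2 and WT 3. Gnao1, a G protein subunit gene 982.7 kb after it, had 60.9%, 55.7% and 60.9% in KO 2, KO 9 and KO 22 and 43.8%, 34.8% and 34.2% in WT 1, WT 2 and WT 3. In both, KO 22 lay beside the other knockout lines.

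**Figure D4:**
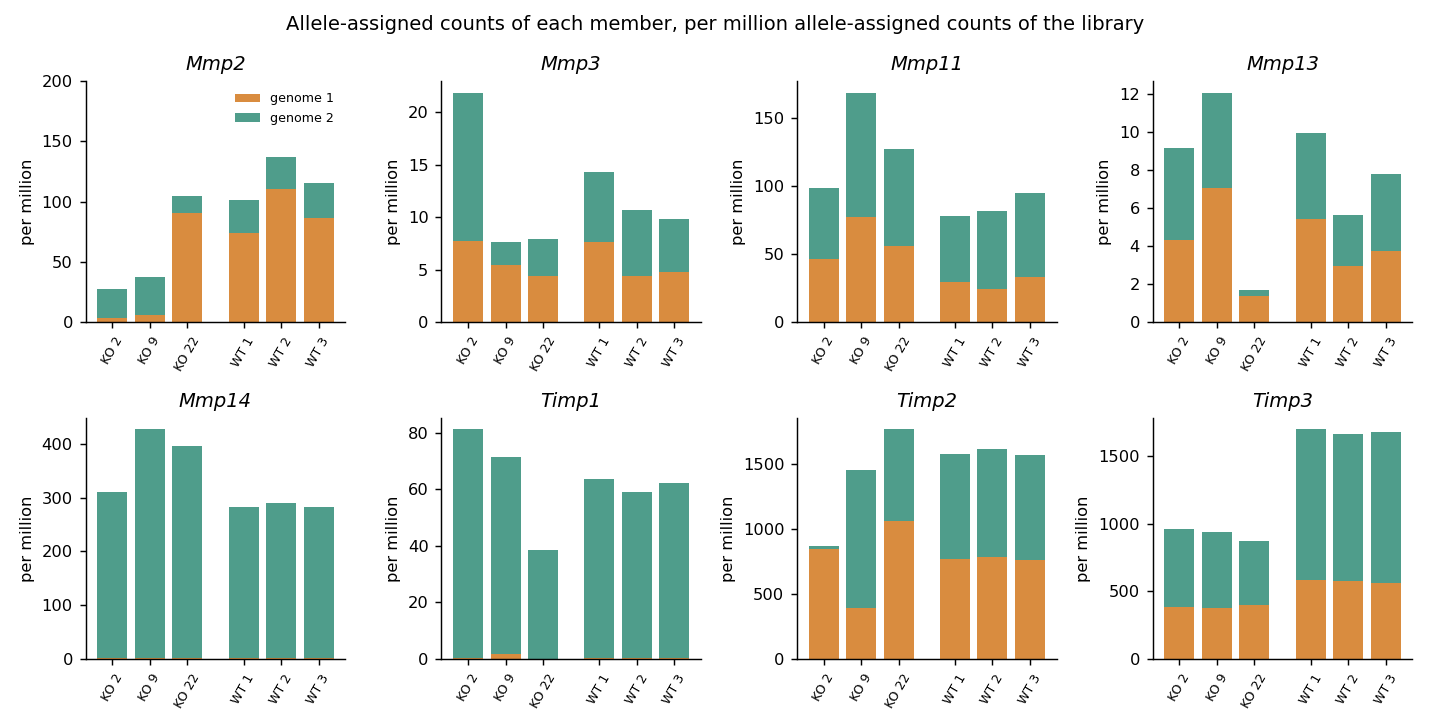
Level of 8 genes on each chromosome copy in allele CPM (linear axes from 0), knockout libraries left of wild-type libraries; orange is genome 1 and green is genome 2, stacked. In Mmp2 the orange part is nearly gone in KO 2 and KO 9 (3.52 and 5.78 allele CPM) and present in KO 22 (90.3), and in Timp2 the green part is nearly gone in KO 2 (26.9).

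Timp2 was split in another way. Its genome 1 share was 96.9% in KO 2 (95% interval 96.7% to 97.2%), 27.0% in KO 9 (26.5% to 27.5%) and 60.1% in KO 22 (59.6% to 60.6%), against 48.7%, 48.5% and 48.5% in WT 1, WT 2 and WT 3. Each knockout line had its own ratio, and the wild-type libraries had nearly the same. In allele CPM, genome 2 gave 26.9, 1061 and 705.6 in KO 2, KO 9 and KO 22, against 809.5, 829.5 and 807.3 in WT 1, WT 2 and WT 3. Genome 1 gave 844.3, 392.7 and 1062 in KO 2, KO 9 and KO 22, against 769.9, 782.4 and 761.1 in WT 1, WT 2 and WT 3. The low total of KO 2 thus went with a genome 2 copy near 0 and a genome 1 copy slightly above wild type. KO 2 and KO 22 lay above wild type and KO 9 below it, and the ratio did not pass the test (log2 ratio change 1.16, SE 1.62, edgeR adjusted p = 0.672).

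Most genes at the end of chromosome 11 also had a high genome 1 share in KO 2, a stretch whose limits were chosen after its values were seen. From Socs3, 335 kb before the lower coordinate of Timp2, to the chromosome end, 73 of 80 genes other than Timp2 had a genome 1 share of at least 90% in KO 2, or 91.2%. The same was true of 0 of 79 genes in KO 9, 4 of 80 in KO 22, and 1, 1 and 0 of 80 in WT 1, WT 2 and WT 3. The median share in the stretch was 100%, 33.6% and 66.0% in KO 2, KO 9 and KO 22 and 56.7%, 56.2% and 57.4% in WT 1, WT 2 and WT 3. The median log2 level of these genes relative to the wild-type mean was -0.69 in KO 2, -0.08 in KO 9 and -0.27 in KO 22, with 0.1 CPM added to each level. In the 5 Mb before Socs3 the picture in KO 2 was the reverse, with a median share of 31.4%, 2 of 69 genes at 90% or more and a median log2 level of 0.65 above the wild-type mean. A low median share there was not particular to KO 2: it was 27.1% in KO 9, 59.1% in KO 22 and 49.0% to 49.6% in wild type. The median log2 level was -0.16 in KO 9 and -0.38 in KO 22. Examples chosen after their values were seen are Pgs1, with 867 genome 1 and 0 genome 2 counts in KO 2, and Gaa, the lysosomal alpha-glucosidase gene, with 3272 and 0. The 5 measured genes nearest to Timp2 were less one-sided in KO 2, with shares of 61.7% (Usp36), 51.4% (Cep295nl), 41.9% (Lgals3bp), 83.1% (Cant1) and 69.6% (C1qtnf1). Each of the 5 still had a higher share in KO 2 than in WT 1, WT 2 and WT 3. Sirt7 lies in the same stretch, 2317 kb beyond it, with a genome 1 share of 100%, 16.9% and 64.0% in KO 2, KO 9 and KO 22 and 56.6%, 57.2% and 58.7% in WT 1, WT 2 and WT 3. The part of the chromosome stretch in the Timp2 level of KO 2 was not tested.

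**Figure D5:**
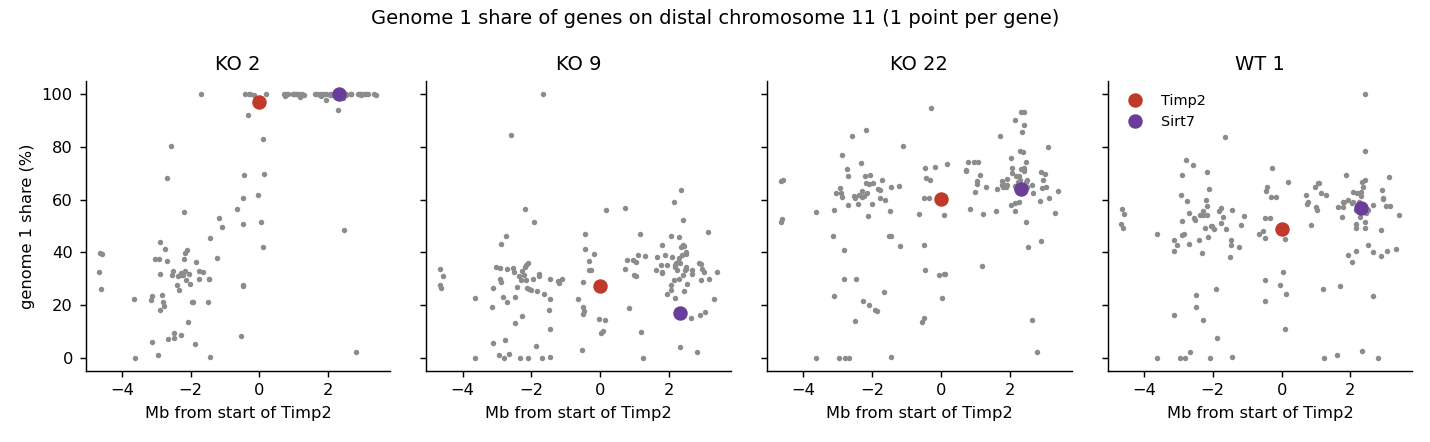
Genome 1 share (%, 0 to 100) of each gene on distal chromosome 11 against its distance in Mb from the start of Timp2, in KO 2, KO 9, KO 22 and WT 1; red is Timp2 and purple is Sirt7. In KO 2 the shares step up near Timp2 to a median of 100%, against 33.6% in KO 9, 66.0% in KO 22 and 56.7% in WT 1.

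Nearly all allele-assigned counts of Mmp14 and Timp1 came from genome 2 in all 6 libraries. How well reads of Mmp14 could be assigned to each genome was not tested, so a silent genome 1 copy is not shown. Mmp14 had a genome 1 share of 0.472%, 0.539% and 0.583% in KO 2, KO 9 and KO 22 and 0.583%, 0.652% and 0.743% in WT 1, WT 2 and WT 3, out of 6999 to 9840 allele-assigned counts in knockout and 6342 to 6599 in wild type (log2 ratio change -0.31, SE 0.16, edgeR adjusted p = 0.229). Counts assigned to genome 2 gave 310.1, 425.3 and 393.5 allele CPM in KO 2, KO 9 and KO 22 and 282.0, 288.2 and 280.3 allele CPM in WT 1, WT 2 and WT 3. Mmp14 was not called in total counts, and which copy its higher knockout level came from was not tested. Its neighbours differed among themselves. Mrpl52, a mitochondrial ribosomal protein gene 4.70 kb before it, had shares of 64.6%, 37.9% and 64.0% in KO 2, KO 9 and KO 22 and 70.7%, 69.1% and 69.9% in WT 1, WT 2 and WT 3. Prmt5, an arginine methyltransferase gene 75.6 kb away, had shares of 2.97% to 3.71% in knockout and 3.87% to 5.20% in wild type. Of 25 neighbours within 1 Mb, 9 to 13 had a share of 10% or less in knockout and 9 to 10 in wild type.

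Timp1 lies on the X chromosome, of which female cells silence a copy. It had 4 of 1825, 38 of 1646 and 0 of 887 allele-assigned counts from genome 1 in KO 2, KO 9 and KO 22, against 7 of 1421, 4 of 1341 and 5 of 1425 in WT 1, WT 2 and WT 3. The 0 in KO 22 allows a share of up to 0.338% (3 counts of the total), and KO 9 was the highest at 2.31% (1.69% to 3.15%). Of 18 neighbours within 1 Mb, 17 had a share of 10% or less in every library, and the median over 413 X-linked genes was 0. The Timp1 ratio did not pass the test (log2 ratio change 0.74, SE 1.25, edgeR adjusted p = 0.736), and its change turned to -1.38 without KO 9.

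Mmp3 and Mmp13, neighbours on chromosome 9, also differed between knockout lines, and so did the median share of their chromosome. Over 717 genes of chromosome 9 without Mmp3 it was 42.5%, 56.8% and 47.4% in KO 2, KO 9 and KO 22. In WT 1, WT 2 and WT 3 it was 37.1%, 36.7% and 37.2%. The genome 1 share of Mmp3 was 35.2%, 70.6% and 55.7% in KO 2, KO 9 and KO 22 and 53.0%, 41.4% and 48.2% in WT 1, WT 2 and WT 3, from 177 to 492 allele-assigned counts in knockout and 226 to 321 in wild type. That of Mmp13 was 47.1%, 58.6% and 82.1% in KO 2, KO 9 and KO 22 and 54.5%, 52.3% and 48.3% in WT 1, WT 2 and WT 3. The 82.1% of KO 22 rests on 39 counts (95% Wilson interval 67.3% to 91.0%). Neither ratio passed the test (edgeR adjusted p = 0.720 for Mmp3 at a log2 ratio change of 0.36, and 0.540 for Mmp13 at 0.57).

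Promoter sequences of RefSeq, 250 bases before to 50 after the start in GRCm38.p6, were matched for 7 of the 9 genes; Mmp2 and Mmp9 were not matched. Mmp3 and Mmp13 are textbook targets of AP-1, the dimer of FOS and JUN proteins. Their promoters are printed with the AP-1 motif TGANTCA and the TATA motif TATAAA in capitals, next to that of Timp3, the called gene, which holds neither. TGANTCA was searched on both strands and TATAAA on the gene strand, and neither overlaps the other in these promoters.
Mmp3 (chr9:7445572-7445871, plus strand): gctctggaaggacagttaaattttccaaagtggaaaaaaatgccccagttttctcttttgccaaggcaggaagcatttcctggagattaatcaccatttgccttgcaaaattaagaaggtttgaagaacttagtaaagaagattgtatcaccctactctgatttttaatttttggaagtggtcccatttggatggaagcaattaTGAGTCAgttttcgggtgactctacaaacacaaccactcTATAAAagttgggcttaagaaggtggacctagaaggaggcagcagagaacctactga
Mmp13 (chr9:7272264-7272563, plus strand): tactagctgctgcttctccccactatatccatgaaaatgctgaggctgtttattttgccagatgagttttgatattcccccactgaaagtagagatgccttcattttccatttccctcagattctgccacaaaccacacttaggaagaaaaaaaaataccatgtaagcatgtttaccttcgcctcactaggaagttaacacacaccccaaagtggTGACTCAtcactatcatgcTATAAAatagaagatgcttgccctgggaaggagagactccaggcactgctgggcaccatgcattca
Timp3 (chr10:86300162-86300461, plus strand): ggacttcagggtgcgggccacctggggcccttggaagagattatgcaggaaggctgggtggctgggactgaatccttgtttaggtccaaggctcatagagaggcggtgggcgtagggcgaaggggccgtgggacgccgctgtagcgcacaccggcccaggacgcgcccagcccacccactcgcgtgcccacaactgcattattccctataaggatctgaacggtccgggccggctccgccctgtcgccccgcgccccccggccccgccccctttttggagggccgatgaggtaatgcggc

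The AP-1 motif began at base -46 in Mmp3 and -35 in Mmp13 relative to the start, and the TATA motif at -7 and -16. Of 32851 promoters of the same length, 7.81% held the AP-1 motif and 8.32% the TATA motif. Mmp11, Mmp14, Timp1, Timp2 and Timp3 held neither, and each had at least 1 GC box GGGCGG on either strand, as did 35.7% of all promoters. A match is a description and not a shown binding site.

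A list of 16 genes for AP-1, ETS and RUNX transcription factors was also followed, all of them tested; ETS and RUNX sites were not searched for in the promoters. Of these, 0 rose, 2 fell and 14 did not pass, and the median log2 fold change was -0.11, against 0.02 over all genes tested. Over all genes 3.54% rose and 3.19% fell, and no list as a whole was tested against these shares. Fosl1, which encodes the AP-1 subunit FRA1, had 25.0, 13.2 and 12.4 CPM in KO 2, KO 9 and KO 22, against 69.8, 62.3 and 78.1 CPM in WT 1, WT 2 and WT 3 (log2 fold change -2.03, SE 0.28, edgeR adjusted p = 0.0170). Jun had 179.1, 145.7 and 156.1 CPM in KO 2, KO 9 and KO 22, against 258.9, 255.6 and 260.9 CPM in WT 1, WT 2 and WT 3 (log2 fold change -0.66, SE 0.10, edgeR adjusted p = 0.0180). Both were lower in every knockout library. Mmp3 and Mmp13, which hold the AP-1 motif, were not called, with SE 0.37 and 0.60 of the log2 fold change. A link between the levels of these factors and the motif genes was not tested. The ETS factors Elf4 (log2 fold change 0.28, edgeR adjusted p = 0.0936) and Etv1 (-0.71, edgeR adjusted p = 0.105) were the next by p.

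Genes that activate MMPs were a list of 10, of which 7 were tested. Of the 7, 0 rose, 2 fell and 5 did not pass, with a median log2 fold change of 0.00153. Over all genes tested the shares were 3.54% up and 3.19% down. Plaur, the receptor that gathers urokinase at the cell surface, had 19.3, 14.1 and 10.6 CPM in KO 2, KO 9 and KO 22, against 45.2, 38.1 and 40.3 CPM in WT 1, WT 2 and WT 3 (log2 fold change -1.46, SE 0.22, edgeR adjusted p = 0.0190). Klk8, a kallikrein protease, had 0 counts in every knockout library, against 23, 11 and 32 counts in WT 1, WT 2 and WT 3, at least 22-fold lower when 3 counts are taken as the floor of a group (edgeR adjusted p = 0.0331). The 2 that fell include Klk8, which passed the filter on low counts through its wild-type counts alone. Its p-value is therefore no support for a fall, and with no filter the edgeR adjusted p was 0.0645. The proprotein convertases, which cut the furin-type sites of MMP11 and MMP14, did not pass: Furin averaged 182.4 ± 12.0 CPM in knockout and 151.6 ± 38.1 CPM in wild type (log2 fold change 0.30, edgeR adjusted p = 0.387), and Pcsk6 averaged 22.95 ± 0.462 and 18.5 ± 0.271 CPM (log2 fold change 0.34, edgeR adjusted p = 0.0899; SD, n = 3 each).

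Other protease inhibitors and clearance receptors were a list of 11, of which 6 were tested. Among the 6, 0 rose, 1 fell and 5 did not pass, beside 3.54% up and 3.19% down over all genes. The 6 had a median log2 fold change of -0.06. The serpin Serpine2, which inhibits urokinase and thrombin, had 3, 6 and 0 counts in KO 2, KO 9 and KO 22, against 29, 48 and 33 counts in WT 1, WT 2 and WT 3 (log2 fold change -3.53, SE 0.75, edgeR adjusted p = 0.0451). Serpine2, the gene that fell, passed the filter on low counts through its wild-type counts alone. Its p-value is therefore no support for a fall, and with no filter the edgeR adjusted p was 0.0987. Reck, a membrane-anchored MMP inhibitor, did not pass at 19.1 ± 7.11 CPM in knockout and 13.45 ± 1.68 CPM in wild type (log2 fold change 0.55, edgeR adjusted p = 0.274). The matrix protein gene Sparc averaged 5430 ± 984 CPM in knockout and 4080 ± 48.7 CPM in wild type, at an edgeR adjusted p of 0.109, and Lrp1, an endocytic receptor that clears MMPs and TIMPs, 867.8 ± 93.2 and 979.3 ± 57.4 CPM (edgeR adjusted p = 0.442; SD, n = 3 each).

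Genes for the docking of MMPs at the cell surface and for their induction were a list of 14, of which 13 were tested. Among the 13, 1 rose, 0 fell and 12 did not pass, beside 3.54% up and 3.19% down over all genes. The 13 had a median log2 fold change of 0.18. Itgb1, the integrin beta 1 subunit of collagen and fibronectin receptors, had 1625, 1867 and 1782 CPM in KO 2, KO 9 and KO 22, against 1027, 1133 and 1093 CPM in WT 1, WT 2 and WT 3 (log2 fold change 0.73, SE 0.09, edgeR adjusted p = 0.0125). Cd44, a hyaluronan receptor that can carry MMP9 and MMP14, had a log2 fold change of -0.46 (edgeR adjusted p = 0.0844), and the syndecans Sdc1 and Sdc4 had 0.37 and -0.50 (edgeR adjusted p = 0.148 and 0.125).

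The remaining MMP and TIMP genes of the table were 18, of which 7 passed the filter on low counts and 5 (Mmp1a, Mmp1b, Mmp7, Mmp8 and Mmp12) were at 0 in all 6 libraries. Of the 7, 1 rose, 1 fell and 5 did not pass, with a median log2 fold change of -0.12. The shares over all genes tested were 3.54% up and 3.19% down. Mmp15, the membrane-type protease MT2-MMP, had 48.9, 62.1 and 41.0 CPM in KO 2, KO 9 and KO 22, against 22.1, 19.4 and 21.1 CPM in WT 1, WT 2 and WT 3 (log2 fold change 1.31, SE 0.16, edgeR adjusted p = 0.0131). Mmp23 had 26, 40 and 73 counts in KO 2, KO 9 and KO 22, against 271, 283 and 267 counts in WT 1, WT 2 and WT 3 (log2 fold change -2.52, SE 0.40, edgeR adjusted p = 0.0230). Mmp16, the membrane-type protease MT3-MMP, had 174, 343 and 0 counts in KO 2, KO 9 and KO 22, against 160, 135 and 143 counts in WT 1, WT 2 and WT 3, and was singled out after its values were seen because KO 22 had none. Mmp28 had 377 to 643 counts in knockout and 596 to 646 counts in wild type. Mmp19 averaged 52.8 ± 6.92 CPM in knockout and 59.6 ± 2.06 CPM in wild type, Mmp17 2.68 ± 0.537 and 4.11 ± 0.415 CPM, and Mmp10 0.403 ± 0.245 and 0.196 ± 0.140 CPM (SD, n = 3 each). Mmp20, Mmp21, Mmp24, Mmp25, Mmp27 and Timp4 were detected too weakly to test. The calls of Fosl1, Jun, Plaur, Klk8, Serpine2, Itgb1, Mmp15 and Mmp23 were each lost without WT 1, without WT 2 and without WT 3, with edgeR adjusted p-values up to 0.186 over the single libraries left out.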

How the data were processed

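Per the labels' protocols, RNA was taken up in TRIZOL, and a sequencing company made and read the polyA libraries. Per the submitters' processing notes, reads were handled with HISAT2 2.1.0, StringTie 1.3.3, SAMtools 0.1.19, Trimmomatic 0.36, DESeq2 1.32.0 and FastQC 0.11.3, in no stated order or role, on mm10 (GRCm38); strand setting and annotation are unstated there. The values used are the authors' estimated counts, all whole numbers as deposited: all reads by gene and by transcript, and reads split by genome by gene. Knockout columns were matched by their line numbers to sample titles; an earlier knockout set without line numbers could hold the same lines. By the match used, the knockout libraries belong to a later set of samples than wild type, and set and genotype then cannot be told apart.

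Total counts of 6 libraries were compared with edgeR 4.0.16 in R 4.3.3 (quasi-likelihood test, TMM scaling, default filter on low counts, Benjamini-Hochberg adjustment, adjusted p under 0.05 called). SE was derived from the log2 fold change and F. Allelic ratios were tested with edgeR, as an interaction of allele and group within libraries, where allele-assigned counts averaged 20 or more. CPM per kb sums transcript counts divided by transcript length (GENCODE M21, matched by 55141 of 55487 genes), scaled by total gene counts as CPM. Alternatives were DESeq2 1.42.0, its size factors, limma-voom 3.58.1 with a variance per group, no filter, chromosome medians taken out, other allele minimums, limma on the logit share and leaving out each library. The tests were also run on simulated data. The outcome of that run is not given here, so no conclusion about the calls is drawn from it. The split transcript table was not used.

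The 9 genes and all lists were chosen with earlier results of these data known. Named were the 9 genes, called MMP and TIMP relatives, up to 4 genes per list by p, and overlapping genes.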

Additional observations from a re-analysis of the deposited data

How the results depend on the processing

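Of 259 values of single genes under other settings, 192 kept direction and stayed called or stayed not called, 46 lost the call, 6 gained it and 15 changed sign. The 192 include many values that were called neither in the edgeR fit nor under the other setting. Only values called in the edgeR fit could lose a call, so 46 of 259 understates how often calls were lost. The 1123 genes called became 396 with no filter on low counts, 2560 with DESeq2 and 666 with chromosome medians taken out, and 45 to 2482 when single libraries were left out; 51, 45 and 50 were called without WT 1, WT 2 and WT 3. The 9 genes had 2 calls with DESeq2, 2 with limma-voom and 0 to 3 when single libraries were left out, against 1 in the edgeR fit; at an unadjusted p under 0.05 there were 2 of the 9 without any 1 wild-type library, beside 2882, 3002 and 2905 of all genes tested without WT 1, WT 2 and WT 3. Genes called in the allelic ratio numbered 1710 to 3822 when single libraries were left out, against 2992, and calls among the 9 genes 0 to 1, against 2, with 0 under limma on the logit share, where 2 of 8 had an unadjusted p under 0.05, beside 4659 of all genes tested. The cause was not tested.

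Changed signs all concerned values that did not pass the test. Mmp13 was -0.0065 with no filter, -0.307 with limma-voom, -0.169 with chromosome medians taken out and -0.513 to 0.459 without single libraries. Timp1 was -0.0097 with chromosome medians taken out and -0.092 to 0.351 without single libraries. Without single libraries Mmp3 ranged over -0.344 to 0.421 and Timp2 over -0.376 to 0.121. The allelic ratio change of Timp1 was -0.351 with limma on the logit share and -1.38 to 1.47 without single libraries, that of Mmp3 -0.157 to 0.935 and that of Timp2 -0.341 to 2.84.

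Timp3 was called under all 5 other settings with all libraries, at log2 fold changes of -0.999 to -0.821. Serpine2 lost its call with no filter, with limma-voom, with chromosome medians taken out and without KO 2, and Klk8 and Mmp23 lost theirs with no filter. No paired analysis was possible because the knockout columns are numbered 2, 9 and 22 and the wild-type columns 1, 2 and 3, so they share 1 number. Low counts limit the precision for Mmp9, with 3 to 21 counts per library, and the alleles of Mmp13 in KO 22, with 39 counts.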
